A study of Mus musculus with 2 samples.

Results

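The Mir322 cluster is a group of 7 miRNA genes on the mouse X chromosome: Mir322, Mir503, Mir351, Mir542, Mir450-2, Mir450-1 and Mir450b. The genes were taken by their symbols and not by a rule on their levels, though earlier results of these data were known. All 7 were found among the 1973 miRNA genes listed for each library. The tissue was the embryonic facial prominence, the set of mesenchymal buds under an epithelium from which the face and jaws form, of mice of strain B6NCrl at embryonic day 12.5. Small RNA under 30 bases was sequenced from 2 pools of embryos of both sexes, 120 embryos in replicate 1 and 88 embryos in replicate 2. The labels call the pools biological replicates of 1 group, so levels within the tissue and differences between the pools can be described, but no condition can be compared. In such bulk tissue, fewer cells that express a miRNA and less miRNA per cell cannot be told apart.

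A miRNA gene is transcribed as part of a longer RNA, from which a hairpin is cut out and then a duplex of about the length of the reads. Either strand of the duplex, named 5p or 3p after its arm of the hairpin, can be loaded into an Argonaute protein and guides it to messenger RNAs that pair with its seed, here bases 2 to 8. Genes with the same seed can therefore share targets. Mir322, whose human counterpart is named miR-424, and Mir503 are known for slowing the cell cycle in differentiating mouse muscle cells by acting on Cdc25a, and they belong with the miR-15 and miR-16 genes to an extended family that restrains cyclins. Mir351 carries the seed of miR-125, the mammalian counterpart of worm lin-4. Human miR-542-3p is known to repress survivin, a protein that protects dividing cells from death.

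The mature strands of the 7 genes are shown with the seed in capitals because the seeds sort the cluster into families. The sequences are from RefSeq on GRCm38.p6, which held 14 mature strands for the 7 genes and 13 different sequences, and they are listed in the order of the genes along their strand.
miR-322-5p: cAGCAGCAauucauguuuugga
miR-322-3p: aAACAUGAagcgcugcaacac
miR-503-5p: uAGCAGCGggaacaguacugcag
miR-503-3p: gAGUAUUGuuuccacugccugg
miR-351-5p: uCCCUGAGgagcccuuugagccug
miR-351-3p: gGUCAAGAggcgccugggaac
miR-542-5p: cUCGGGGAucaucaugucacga
miR-542-3p: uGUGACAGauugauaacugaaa
miR-450a-5p: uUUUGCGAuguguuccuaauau
miR-450a-2-3p: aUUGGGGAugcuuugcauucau
miR-450a-1-3p: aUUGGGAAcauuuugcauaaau
miR-450b-5p: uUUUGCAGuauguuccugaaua
miR-450b-3p: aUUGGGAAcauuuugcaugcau

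The strands held 12 different seeds. The seeds of miR-322-5p and miR-503-5p matched over 6 bases, from base 2 to base 7, and differed at the last base of the seed. The 3p strands of Mir450-1 and Mir450b had the same seed and were identical at 20 of 22 bases. The strand miR-450a-5p is made by both Mir450-1 and Mir450-2, and its whole sequence stood in the hairpins of both. No other mature strand of the cluster was found in a hairpin of any other gene in the tables.

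The 7 genes lay on the minus strand within 6353 bases of the X chromosome, from 53047997 to 53054349 on GRCm38, so Mir322 came first in the direction of transcription and Mir450b last. Mir322 (ENSMUSG00000065418.1) lay at 53054255 to 53054349 and Mir503 (ENSMUSG00000076122.1) followed 200 bases downstream at 53053984 to 53054054. Mir351 (ENSMUSG00000065503.1) lay a further 630 bases on, at 53053255 to 53053353. A gap of 3767 bases, the widest in the cluster, separated it from Mir542 (ENSMUSG00000076140.1) at 53049403 to 53049487. The 3 Mir450 genes stood 1035 bases beyond Mir542 and close together. These were Mir450-2 (ENSMUSG00000076399.1) at 53048299 to 53048367, Mir450-1 (ENSMUSG00000065486.1) at 53048154 to 53048244 and Mir450b (ENSMUSG00000076050.1) at 53047997 to 53048078, with gaps of 54 and 75 bases between them.

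The 2 annotations differed on the host of the upstream genes. In RefSeq, the noncoding gene C430049B03Rik (53053112 to 53057190) enclosed Mir322, Mir503 and Mir351, whereas in GENCODE M21 it ended at 53055046, which is 696 bases upstream of Mir322, and enclosed none of them. Another noncoding gene of GENCODE, Gm28730 (53051194 to 53053159), lay in the wide gap before Mir542 and enclosed no member. The nearest protein-coding genes were Plac1, 15645 bases upstream, and Hprt, 26337 bases downstream on the other strand. A second miRNA cluster, Mir106a to Mir363, lay 305429 bases downstream on the same strand.

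Replicate 1 had 4719337 reads on the own strand of miRNA genes and replicate 2 had 5929220, so that a single read was worth 0.212 and 0.169 CPM (counts scaled so that the own-strand reads of a library sum to 1000000). Of all reads listed, 26.0% in replicate 1 and 27.9% in replicate 2 mapped to several places and were counted to no gene. Detected genes are those that reached 10 counts in each library, and they were 395 of the 1973 listed. The labelled tissue was checked with marker genes. All 5 genes of mesenchyme and cartilage (such as Mir214) and all 7 of epithelium (such as Mir205) were detected, with summed levels in replicates 1 and 2 of 62763 and 62527 CPM for mesenchyme and cartilage and of 30805 and 35800 CPM for epithelium. Of genes that mark other tissues, 2 of 5 striated muscle genes were detected (1081 and 1498 CPM in sum) and 1 was at 0 in both libraries. All 3 erythroid genes were detected (223 and 331 CPM), as was the liver gene Mir122 (13.8 and 13.5 CPM). Of 5 neural genes, 1 was detected (17.6 and 12.0 CPM in sum) and 2 were at 0 in both libraries. All 5 neural genes and 4 of the muscle genes share a stretch of 20 bases with another gene, so reads of them can be lost to several places. Low counts of these genes therefore do not show that nerve or muscle was absent.

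All 7 genes of the cluster were detected, against 395 of the 1973 listed genes. Together the 7 held 4.72% ± 0.448 of all counts on miRNA genes (SD, n = 2). The cluster had 207702 counts in replicate 1, or 4.40% of the library (exact 95% interval 4.38 to 4.42), and 298550 counts in replicate 2, or 5.04% (interval 5.02 to 5.05). No read of the members lay on the opposite strand in either library. These intervals, like those below, cover counting error only, and the difference between the libraries was far wider than they are. Of the 7 genes, 5 stood above the median level of the detected genes, which was 122 CPM.

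**Figure D1:**
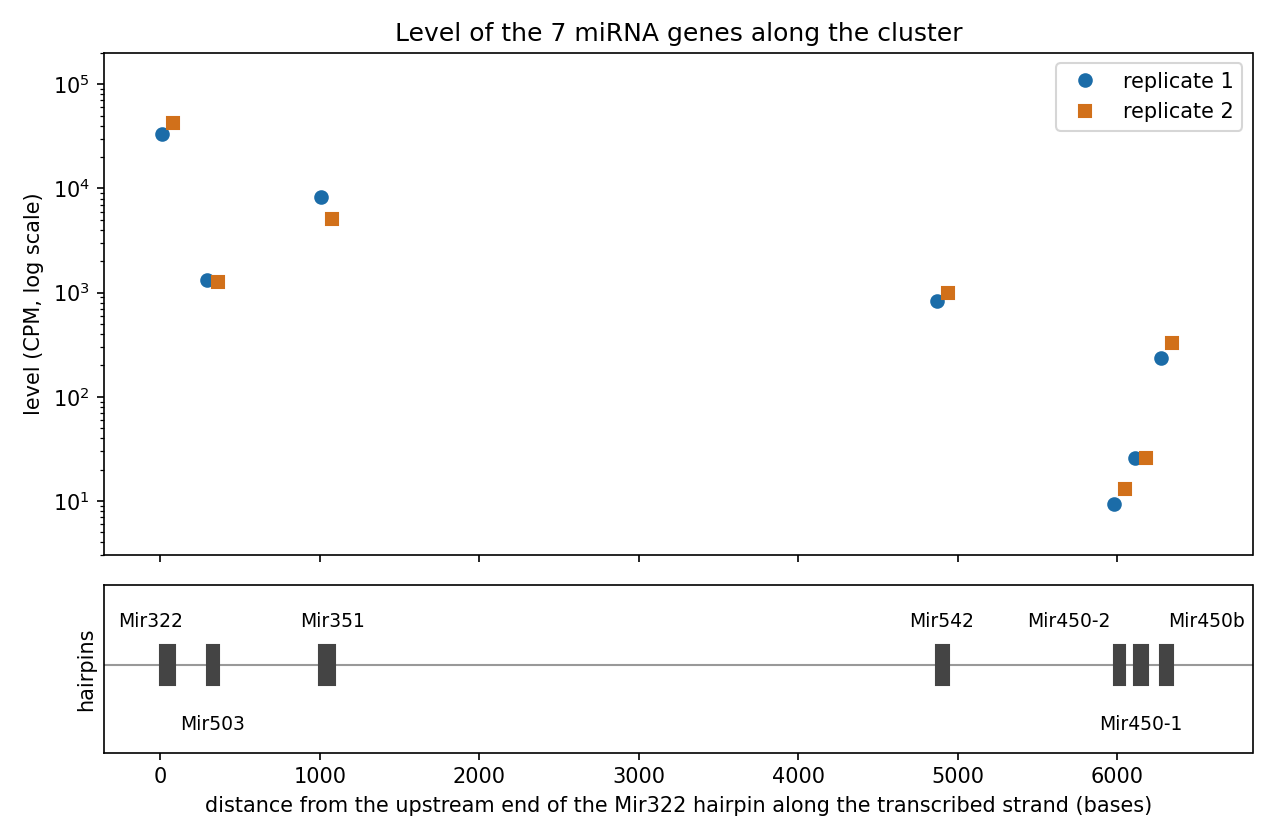
Level of each cluster gene in CPM on a log axis (top) above a map of the 7 hairpins to scale (bottom), by distance in bases from the upstream end of Mir322; circles are replicate 1 and squares replicate 2, shifted slightly apart. Mir322 stands highest, Mir503 dips below Mir351, and the adjacent Mir450-2, Mir450-1 and Mir450b span from 9.32 to 327 CPM.

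Mir322 was the most abundant gene of the cluster. It stood at 33299 CPM in replicate 1 and 42672 CPM in replicate 2, with a mean of 37986 ± 6628 CPM (SD, n = 2), and ranked 8th and 5th of all genes in the 2 libraries. These ranks hold as counted, since genes whose reads mapped to several places can rank too low. By mean level the genes next above Mir322 were Mir17 (51655 ± 3519 CPM) and Mir214 (45770 ± 198 CPM), and the genes next below were Mir23b (36095 ± 5.22 CPM) and Mirlet7i (33295 ± 3744 CPM). The difference between Mir322 and its lower neighbours was within the spread of Mir322, since in replicate 1 both Mir23b (36099 CPM) and Mirlet7i (35943 CPM) exceeded it. Mir322 alone held 75.7% of the cluster's counts in replicate 1 (exact interval 75.5 to 75.8) and 84.7% in replicate 2 (interval 84.6 to 84.9), a mean of 80.2% ± 6.42.

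Mir351 was the second gene of the cluster, at 8284 CPM in replicate 1, against 5059 CPM in replicate 2 (6672 ± 2281 CPM, SD, n = 2). It held 18.8% of the cluster's counts in replicate 1 and 10.05% in replicate 2. Mir322 was thus 4.02-fold above Mir351 in replicate 1 and 8.44-fold above it in replicate 2. Mir503, although it lies between these genes, was lower than both, at 1320 CPM in the first library and 1274 CPM in the second (1297 ± 32.4 CPM). Mir322 exceeded Mir503 25.2-fold in replicate 1 and 33.5-fold in replicate 2, and Mir351 exceeded it 6.28-fold and 3.97-fold.

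The 4 genes downstream of the wide gap held 2.52% of the cluster's counts in replicate 1 and 2.68% in replicate 2. Mir542 led them at 835 CPM in replicate 1 against 981 CPM in replicate 2 (908 ± 104 CPM, SD, n = 2). Mir450b, the last gene of the cluster, stood at 237 and 327 CPM (282 ± 63.7 CPM). Mir450-1 stood at 26.1 CPM in the first library and 26.0 CPM in the second, from 123 and 154 counts. Mir450-2 had the lowest level, at 9.32 CPM in replicate 1 against 13.0 CPM in replicate 2, from 44 and 77 counts, and its exact Poisson intervals (6.77 to 12.5 CPM and 10.2 to 16.2 CPM) overlapped.

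Levels did not fall steadily in the order of the genes along the strand, since Mir351 exceeded the upstream Mir503 in both libraries. As counted, Mir450b also exceeded Mir450-2 and Mir450-1 upstream of it. No annotated gene enclosed all 7, and whether they share 1 transcript in this tissue was not tested. The hairpins of the 3 Mir450 genes are shown with the mature strands in capitals, to show the sequence that Mir450-2 and Mir450-1 share.
Mir450-2 hairpin: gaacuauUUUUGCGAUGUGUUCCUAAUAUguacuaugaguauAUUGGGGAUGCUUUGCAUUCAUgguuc
Mir450-1 hairpin: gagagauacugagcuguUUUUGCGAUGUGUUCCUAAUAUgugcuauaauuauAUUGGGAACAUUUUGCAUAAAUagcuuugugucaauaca
Mir450b hairpin: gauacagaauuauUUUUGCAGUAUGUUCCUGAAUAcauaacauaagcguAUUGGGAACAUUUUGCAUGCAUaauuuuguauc

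The first capital run is identical in Mir450-2 and Mir450-1, as is miR-450a-5p above, so a read of that whole strand matches both places and was counted to neither. Their hairpins were identical at 56 of the 69 bases of the shorter one, and they were the only members that shared a stretch of 20 bases with another gene. The levels of Mir450-1 and Mir450-2 are therefore lower limits. Mir450b, whose 5p strand matched miR-450a-5p at 15 of 22 bases, did not share such a stretch. How many reads were lost was not tested, since the tables hold only the total of reads with several places.

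By mean level the order was Mir322, Mir351, Mir503, Mir542, Mir450b, Mir450-1 and Mir450-2, and each library gave the same order. It was also the same after dividing by the length of the hairpin, which ran from 69 to 99 bases. Per 100 bases of hairpin the mean level was 39985 CPM for Mir322, 6739 CPM for Mir351, 1826 CPM for Mir503, 1068 CPM for Mir542, 344 CPM for Mir450b, 28.6 CPM for Mir450-1 and 16.2 CPM for Mir450-2. Spread between the libraries was estimated over all detected genes as a common biological coefficient of variation of 0.190 with edgeR. With this spread, 2 standard errors of a difference between the means of 2 genes came to 0.55 on the log2 scale. All neighbours in the order differed by more than this except Mir503 and Mir542, whose mean difference was 0.52 (log2, SD 0.20, n = 2). This limit covers spread between the libraries only. An error that both libraries share for a given sequence would not show in it. The places of Mir450-1 and Mir450-2 in the order, also below Mir450b, hold only as counted, without reads of their common strand.

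**Figure D2:**
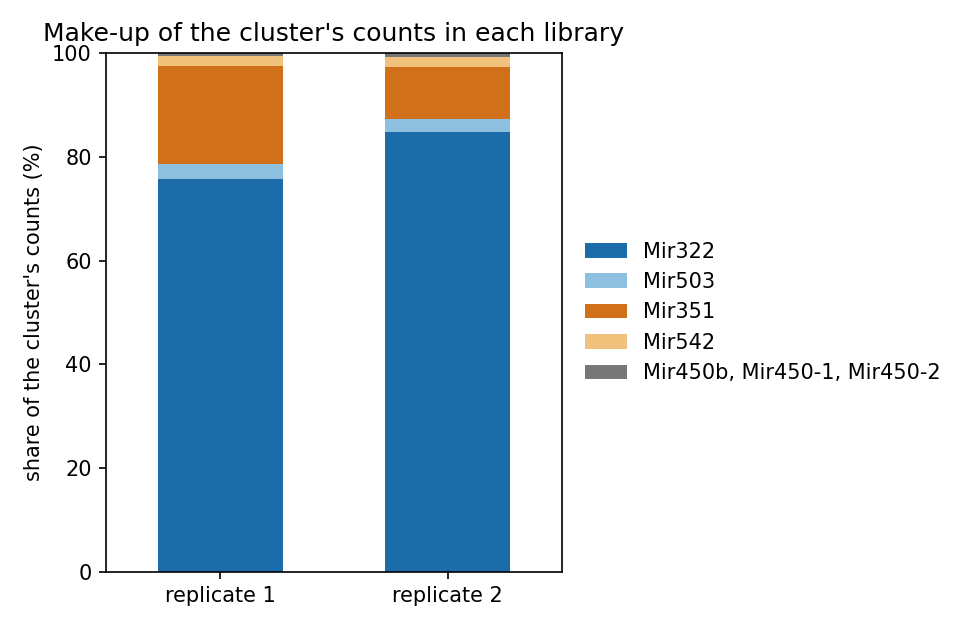
Share of the cluster's own counts held by each gene in replicate 1 (left) and replicate 2 (right), in percent. The share of Mir351 is 18.8% in replicate 1 and 10.05% in replicate 2, and that of Mir322 is 75.7% and 84.7%.

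Mir322 held most of the counts assigned to genes with the seed of miR-322-5p. RefSeq lists 11 genes with this seed. Mir497 could not be matched by symbol and is not analysed here. Of the other 10 genes 6 were detected, and the strands of the 5 outside the cluster are shown with the seed in capitals.
miR-15a-5p: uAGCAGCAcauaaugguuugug
miR-15b-5p: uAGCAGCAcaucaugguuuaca
miR-16-5p: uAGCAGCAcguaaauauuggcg
miR-195a-5p: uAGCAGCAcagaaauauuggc

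The strand miR-16-5p is made by both Mir16-1 and Mir16-2, so whole reads of it were counted to neither gene. Of these strands miR-322-5p matched miR-15b-5p most closely, at 16 of 22 bases with the seed included and 9 of the 15 outside it. It matched miR-195a-5p least, at 11 of 21 bases and 4 of the 14 outside the seed. As counted, Mir322 held 81.1% of the counts of the 10 genes in replicate 1 (exact interval 80.9 to 81.3) and 83.4% in replicate 2 (interval 83.3 to 83.5), a mean of 82.3% ± 1.61 (SD, n = 2). Levels are per gene and not divided by length, since the 5p strands shown are all of 21 or 22 bases. This share joins both arms of each hairpin, and reads of miR-16-5p or Mir497, if included, would lower it.

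Among the genes of that seed outside the cluster, which restrain the cell cycle and the survival factor Bcl2, Mir15a was highest at 3810 ± 4.84 CPM (SD, n = 2). Mir16-1 stood at 1831 ± 273 CPM, Mir15b at 1471 ± 89.0 CPM, Mir195a at 573 ± 109 CPM and Mir16-2 at 435 ± 48.2 CPM. Mir195b had 0 counts in replicate 1 and 1 in replicate 2, and the other 3 genes, Mir6342, Mir6353 and Mir6419, had 0 in both. With 0 counts a level of up to 3 counts cannot be told from 0, a limit of 0.636 CPM in replicate 1, against 0.506 CPM in replicate 2. Together the 9 genes outside the cluster summed to 7749 CPM in replicate 1, against 8490 CPM in replicate 2, and Mir322 stood above that sum in both libraries as counted. The sum is a lower limit, since whole reads of miR-16-5p are not in it.

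The seed of miR-351-5p was carried by 6 genes of the table, and 4 were detected. The strands of the other detected genes are shown to compare with miR-351-5p, with the seed in capitals.
miR-125a-5p: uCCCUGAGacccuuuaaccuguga
miR-125b-5p: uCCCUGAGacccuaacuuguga

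Counted from base 1 with no gap, miR-351-5p matched miR-125a-5p at 10 of 24 bases and miR-125b-5p at 10 of 22, seed included. This count misses stretches that the strands share at shifted positions, and how alike they are outside the seed was not measured with gaps. As counted, Mir351 held 39.0% of the counts of the 6 genes in replicate 1 (exact interval 38.7 to 39.3) and 34.2% in replicate 2 (interval 33.9 to 34.5). Mir125a held the largest share as counted. It stood at 9486 CPM in replicate 1 against 6126 CPM in replicate 2 (7806 ± 2375 CPM, SD, n = 2). Mir125b-1 stood at 2898 ± 14.6 CPM and Mir125b-2 at 628 ± 81.9 CPM, and Mir6367 and Mir6394 had 0 counts in both libraries. Mir125b-1 and Mir125b-2 make the same 5p strand, so they too can be undercounted. Whole reads of that strand, if included, would lower the shares of Mir351 and Mir125a. Mir125a exceeded Mir351 in both libraries, and both genes were higher in replicate 1, Mir125a by 0.64 on the log2 scale. The difference between their means was smaller than the SD of either. Those SDs include the difference between pools that both genes had, so they do not measure the gap within a library. Of other genes that share a seed with the cluster, Mir6966 (the seed of miR-542-5p) had 4 counts in replicate 1 and 1 in replicate 2, and Mir6352 (the seed of miR-450b-3p) had 0 in both.

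**Figure D3:**
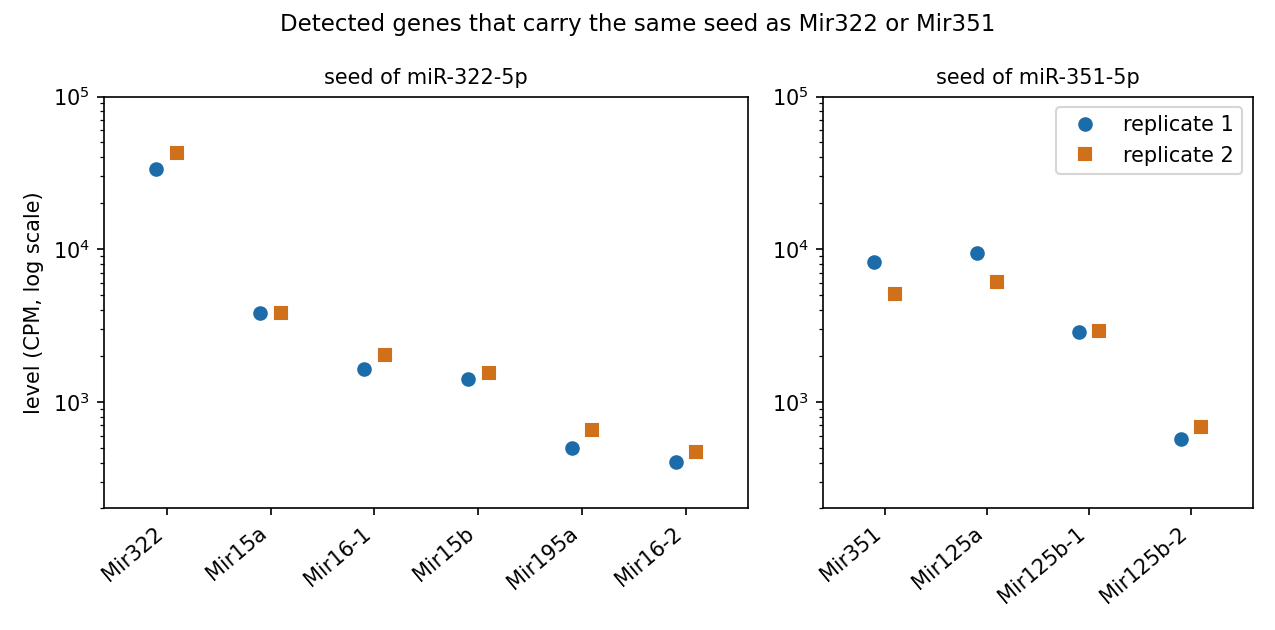
Level in CPM on a log axis of the detected genes that carry the seed of miR-322-5p (left) or miR-351-5p (right), with the cluster gene first; circles are replicate 1 and squares replicate 2. Mir322 lies above every other gene of its seed in both libraries, whereas Mir351 lies just below Mir125a, and both of these are higher in replicate 1.

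Between the pools, Mir351 went the opposite way to Mir322, Mir542 and Mir450b. Its log2 ratio of replicate 1 over replicate 2 was 0.72 (exact interval 0.70 to 0.74), whereas Mir322 had -0.35 (interval -0.36 to -0.34), Mir542 had -0.23 (interval -0.29 to -0.17) and Mir450b had -0.46 (interval -0.57 to -0.35). Mir503 was close to 0 at 0.06 (interval 0.01 to 0.10), as was Mir450-1 at 0.01 (interval -0.34 to 0.36), and Mir450-2 had -0.47 with a wide interval of -1.04 to 0.08. The ratio of Mir322 to Mir351 therefore differed 2.10-fold between the libraries. Their hairpins lie 901 bases apart on the same strand, and how often other close pairs differ this much was not measured.

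These differences were tested with an exact two-sided binomial test on the reads of the 2 libraries, which compares these libraries alone, with Benjamini-Hochberg adjustment over the 395 detected genes. At an adjusted p under 0.05, 5 of the 7 members differed, and so did 51.9% of all detected genes. Mir351 and Mir503 were higher in replicate 1, as were 24.8% of all detected genes at this limit, and Mir322, Mir542 and Mir450b were higher in replicate 2, as were 27.1%. The exact binomial adjusted p was 6.50e-14 for Mir542, 4.97e-17 for Mir450b and 0.0449 for Mir503, and it was too small to be written as other than 0 for Mir322 and Mir351. For Mir450-2 it was 0.141 and for Mir450-1 0.992, and their low counts gave the widest intervals of the 7. With a minimum difference of 2-fold added, 0 of the 7 members passed, against 4.05% of all detected genes.

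Counting error is not the spread between pools. Of the 7 members, only Mir351 differed by more than 1.5-fold, as did 13.7% of all detected genes, and its ratio was above that of 92.4% of them. The common coefficient of variation of 0.190 was estimated from the differences between the same 2 libraries, so the share of all genes it calls follows largely from that estimate, and a test with it is no independent check. With it as the error, edgeR's exact test called 0 of the 7 members, against 0.506% of all detected genes, and at an unadjusted p under 0.05 it again found 0 members, against 5.57% of all. The smallest of the members' values was that of Mir351, with an unadjusted p of 0.0668 and an adjusted p of 1 by edgeR's exact test. The median log2 ratio of the 7 members was -0.23, beside 0.00260 for all detected genes.

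**Figure D4:**
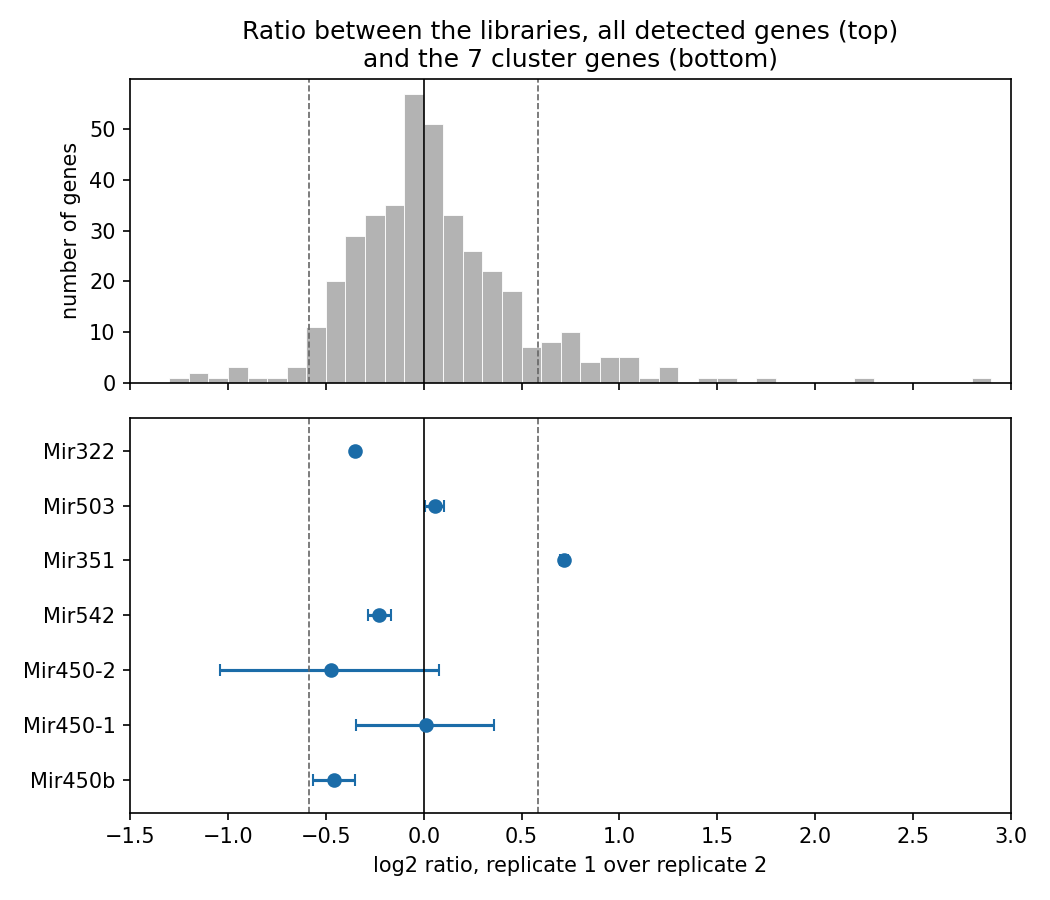
Histogram of the log2 ratio of replicate 1 over replicate 2 for the 395 detected genes (top), and the ratio of each cluster gene with its exact 95% interval for counting error (bottom); dashed lines mark a 1.5-fold difference. Mir351, at 0.72, is the only member past a dashed line, and most others lie at or left of 0.

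Base composition differed among the members. The mature strands of Mir351 averaged 64.6% G and C over both arms, the highest of the 7 genes, against 53.3% for Mir503, 44.3% for Mir322, 43.2% for Mir542, 36.4% for Mir450-2, 34.1% for Mir450b and 29.5% for Mir450-1. Over the 357 detected genes with a mature sequence, the 89 genes with the highest share of G and C (58.1% or more) had a median log2 ratio of 0.18, and the 94 genes with the lowest (43.2% or less) had -0.07. Between these, 99 genes had a median of -0.02, and 75 genes with a higher share of G and C had 0.005. The correlation between this share and the log2 ratio was 0.24 (Pearson) and 0.23 (Spearman) across genes, which all come from the same pair of libraries. With the GC content of the whole hairpin over the same genes it was 0.15 (Pearson) and 0.14 (Spearman). Within the cluster Mir450-1, the lowest in G and C, had a ratio of 0.01, and those of Mir322, Mir542, Mir450-2 and Mir450b were lower. The ratio of Mir450-1 rests on 123 and 154 counts, without whole reads of miR-450a-5p. Its exact interval (-0.34 to 0.36) takes in that of Mir542 and overlaps that of Mir450-2, so its place among the ratios is uncertain. The GC content of the whole hairpin does not set Mir351 apart, at 50.5% against 51.6% for Mir322. The part of base composition in the ratios was not tested, and this measure was chosen after the ratios were seen.

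Beside the 3 other miRNA clusters compared here, the Mir322 cluster had the widest span of log2 ratios between the pools. With 1 value per cluster this is a description, with no test. It does not rank the cluster among all miRNA clusters, and a span can grow with the number of genes. Elsewhere, the neighbours Mir181a-2 and Mir181b-2 on chromosome 2 had log2 ratios of 2.23 and -0.23, which lie further apart. The log2 ratios of the 7 members spanned 1.19, against 1.04 for the 6 genes of the Mir106a to Mir363 cluster, 0.62 for the 6 genes of the Mir17 to Mir92-1 cluster and 0.44 for Mir183, Mir96 and Mir182. In the Mir106a to Mir363 cluster the gene that stood apart was Mir92-2, at 0.75. As counted, the highest gene of the Mir322 cluster exceeded the lowest 3572-fold in replicate 1 and 3286-fold in replicate 2. The same measure was 1785 and 2071 in the Mir17 to Mir92-1 cluster, 131 and 121 in the Mir106a to Mir363 cluster and 4.25 and 4.005 among the Mir183 genes. In each of the Mir322, Mir17 to Mir92-1 and Mir106a to Mir363 clusters, 2 genes shared a stretch of 20 bases with another gene, and the lowest gene was 1 of these, so these folds are upper limits. Without such genes the fold was 140.3 in replicate 1 and 130.4 in replicate 2 for Mir322 over Mir450b, below the 513 and 600.05 for Mir17 over Mir19a, and 13.8 and 15.4 in the Mir106a to Mir363 cluster. The span of log2 ratios without them was 1.18 in the Mir322 cluster, 0.25 in the Mir17 to Mir92-1 cluster and 0.21 in the Mir106a to Mir363 cluster. These last spans are not like for like. Leaving out such genes removed Mir92-1 (0.47) and Mir92-2 (0.75), which had the highest ratios of their clusters, but kept Mir351.

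The X chromosome held 120 listed miRNA genes. As counted, the 7 members accounted for 58.2% ± 2.09 of all counts on these genes (SD, n = 2), with 56.8% in replicate 1 and 59.7% in replicate 2. The other 113 X-linked genes, 36 of them detected, had 33523 and 33969 CPM in sum, less than the cluster's 44011 and 50352 CPM. The highest of them were Mir652 (13706 ± 431 CPM), Mir361 (3508 ± 78.5 CPM) and Mir532 (2935 ± 84.3 CPM), all below Mir322. The 36 genes had a median log2 ratio of -0.02, and 17 of them were higher in replicate 1, against 19 in replicate 2. The Mir106a to Mir363 cluster, which includes genes of the growth-promoting miR-17 family, held 2481 ± 45.9 CPM as counted, against 47182 ± 4484 CPM for the Mir322 cluster.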

How the data were processed

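The authors deposited raw read counts per miRNA gene for each library. The build (mm10) and the annotation (GENCODE M4) are given per the labels and the deposited library descriptions, whereas the aligner, counter and trimming are not given in the sources used here. The column with 96.8% and 96.7% of gene reads in replicates 1 and 2 was taken as the gene's own strand. A count joins both arms of a hairpin. Reads counted to no gene, 58.7% and 53.7% of all reads, were kept out of library sizes.

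Symbols and positions came from GENCODE M21 on GRCm38, which matched 1894 of 1973 identifiers. CPM were computed from own-strand counts. Spread and TMM factors came from edgeR 4.0.16, and exact binomial tests from scipy 1.17.1, with TMM library sizes. The binomial test was tried on simulated counts that held counting error only, with no spread between pools. The estimate of spread was tried on simulated pairs of libraries with a set coefficient. With 1 library on each side no quasi-likelihood fit is possible. DESeq2 1.42.0 size factors were an alternative. Members, lists and tests were chosen with earlier results of these data known. Named are all members, genes that share their seeds, the 2 genes on each side of Mir322 by level, 3 other clusters and the 3 highest other X-linked genes.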

Additional observations from a re-analysis of the deposited data

How the results depend on the processing

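The order of the 7 members did not depend on dividing by hairpin length, and no log2 ratio of a member changed sign with plain library sums, with DESeq2 size factors or with opposite-strand reads added. Mir503 passed the exact binomial test narrowly: its log2 ratio was 0.0510 with plain library sums and 0.0536 with DESeq2 size factors, and neither passed. Per all reads in the tables in place of reads on genes, the cluster's share was 2.08%, since that denominator is larger by construction, and with genes that share a stretch of 20 bases removed it was 5.22%, since fewer genes then make up the total. With a library left out, the share was 4.40 to 5.04%, and the share of Mir322 within the cluster 75.7 to 84.7%. The number of detected genes that differed at least 2-fold at an adjusted p under 0.05 was 16, 20 with a minimum of 1 count and 6 with a minimum of 100 counts. With edgeR's exact test and the same 2-fold minimum it was 2, with a coefficient fitted to the same 2 libraries. The spans within clusters without genes that share a stretch were chosen after seeing the data. Adding opposite-strand reads moved 6 levels or ranks of members by more than the replicate spread and did not move 18 other values or calls. No paired analysis was possible because the 2 libraries form 1 group. Depth limits Mir450-1 and Mir450-2, and unassigned reads limit them further.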
